A study of Mus musculus with 6 samples.

Results

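The 580 regions described here are stretches of chromatin listed as more accessible in fibroblasts heterozygous for the R206H allele of Acvr1, each lying alone inside a gene of moderate length. They were chosen by the authors' call of a gain in accessibility and by position, from 3521 differential regions in all, of which 2965 were listed as gained and 556 as lost. A gained region was kept when no other gained region lay within a gap of 10 kb and its midpoint fell inside the span of a protein-coding gene shorter than 200 kb. That gene is called the host, and where several spans held the midpoint it was the gene with the nearest end. The 580 regions fell in 522 hosts. Of the other gained regions, 597 lay alone in hosts of 200 kb or more, 1431 lay alone outside protein-coding genes, and 357 had another gained region within 10 kb.

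Chromatin accessibility was measured by ATAC-seq in mouse embryonic fibroblasts taken from E13.5 embryos and cultured without any added agent named in the labels. There were 3 libraries of the wild-type genotype Acvr1+/+ and 3 of the heterozygous mutant genotype Acvr1R206H/+, labelled as a mutant for fibrodysplasia ossificans progressiva (FOP). The design calls them biological replicates, and whether each came from a separate embryo is not said. The deposited lists give positions only, with neither read counts nor test statistics nor any measurement for a single library, so depth is unknown and no difference between genotypes could be tested again.

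In ATAC-seq a transposase inserts sequencing adapters where DNA is not wrapped in nucleosomes, so open promoters and enhancers give many reads. Enhancers often lie inside introns and may act on their host gene, on a gene nested in it or on a distant neighbour. ACVR1, also called ALK2, is a type I receptor for bone morphogenetic proteins (BMPs), and the R206H change in it causes FOP, in which muscle, tendon and ligament are replaced by bone. BMP receptors signal through SMAD proteins, and WNT, Hippo and growth factor signalling act beside them in skeletal progenitors.

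Few of the regions lay at a gene start. RefSeq promoter windows on GRCm38.p6 hold 250 bases before and 50 bases after each listed start. A region overlapped such a window in 3 of 568 cases (0.528%, exact 95% Clopper-Pearson interval 0.109 to 1.54). The share was 3 of 573 (0.524%) for isolated gained regions in longer hosts and 3 of 180 (1.67%, interval 0.345 to 4.79) for lost regions in hosts under 200 kb. The table of starts is not complete, so these shares are floors for the regions counted. Starts near 12 of the 580 regions were not used here, and leaving those regions out could move the share either way. All intervals in the text cover counting error only.

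The 250 bases before those 3 starts are shown because they are the promoter sequence that the gained regions reached, printed 5′ to 3′ on the strand of the gene with the bases inside the gained region in capitals. Gm35351, a gene that is not protein-coding and lies inside Arsj, has its window at chr3:126407201-126407450 on the minus strand, and the gained region covered all 250 bases. Gm765, a predicted gene, has its window at chr6:98342755-98343004 on the minus strand, with 173 bases covered. Gm3985, also a predicted gene, has its window at chr8:32950027-32950276 on the minus strand, with 19 bases covered.
Gm35351: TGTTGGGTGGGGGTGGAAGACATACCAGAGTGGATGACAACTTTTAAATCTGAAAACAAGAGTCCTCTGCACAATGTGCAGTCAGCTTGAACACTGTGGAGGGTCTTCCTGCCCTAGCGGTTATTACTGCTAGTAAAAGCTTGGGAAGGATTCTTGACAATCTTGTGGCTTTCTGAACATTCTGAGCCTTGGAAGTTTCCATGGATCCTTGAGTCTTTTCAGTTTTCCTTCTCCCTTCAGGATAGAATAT
Gm765: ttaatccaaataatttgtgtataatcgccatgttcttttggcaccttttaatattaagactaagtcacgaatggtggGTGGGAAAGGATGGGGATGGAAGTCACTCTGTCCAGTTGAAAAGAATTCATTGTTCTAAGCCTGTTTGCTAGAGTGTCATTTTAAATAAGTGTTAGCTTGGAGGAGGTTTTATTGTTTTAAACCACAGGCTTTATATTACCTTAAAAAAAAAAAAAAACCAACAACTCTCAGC
Gm3985: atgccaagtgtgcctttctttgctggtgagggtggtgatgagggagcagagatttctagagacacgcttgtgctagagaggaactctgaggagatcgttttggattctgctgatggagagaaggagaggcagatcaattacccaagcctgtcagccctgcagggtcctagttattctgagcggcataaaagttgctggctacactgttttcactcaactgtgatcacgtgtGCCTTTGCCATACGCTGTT

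CpG dinucleotides were few in these windows. The whole windows of 300 bases held 1 CpG for Gm35351, 3 for Gm765 and 6 for Gm3985, and the median over all 32851 listed windows was 7 (quartiles 3 to 20).

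The starts of 3 signalling hosts are shown for comparison. Rnf43 encodes a ubiquitin ligase that removes Frizzled receptors, and its listed internal start lay 820 bp from the midpoint of a gained region, with the window at chr11:87699647-87699896 on the plus strand. Acvr1b encodes ALK4, a type I receptor for activins, and its window is chr15:101173822-101174071 on the plus strand. Fzd4 encodes a Frizzled receptor for WNT and Norrin, with its window at chr7:89404116-89404365 on the plus strand. Capitals here mark a match to GGCGCC, a GC-rich element known to bind SMAD1 and SMAD5.
Rnf43: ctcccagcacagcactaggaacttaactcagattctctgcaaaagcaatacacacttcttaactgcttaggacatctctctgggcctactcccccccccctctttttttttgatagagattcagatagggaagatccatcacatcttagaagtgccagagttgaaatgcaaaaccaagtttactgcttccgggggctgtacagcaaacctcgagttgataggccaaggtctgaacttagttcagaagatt
Acvr1b: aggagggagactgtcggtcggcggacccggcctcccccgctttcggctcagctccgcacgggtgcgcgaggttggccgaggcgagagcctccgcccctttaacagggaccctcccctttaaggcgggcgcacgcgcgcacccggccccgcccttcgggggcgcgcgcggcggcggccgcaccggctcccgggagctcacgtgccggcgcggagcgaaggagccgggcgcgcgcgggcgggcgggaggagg
Fzd4: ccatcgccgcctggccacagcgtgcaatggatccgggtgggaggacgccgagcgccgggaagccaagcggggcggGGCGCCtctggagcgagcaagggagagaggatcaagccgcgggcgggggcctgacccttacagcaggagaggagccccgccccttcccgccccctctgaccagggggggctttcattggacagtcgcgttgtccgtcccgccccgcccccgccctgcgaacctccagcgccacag

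The windows of 300 bases held 51 CpGs for Acvr1b and 32 for Fzd4, but 3 for the internal start of Rnf43. None of these 3 windows was overlapped by a gained region. The gained region in Acvr1b lay 2.43 kb inside the gene, and that in Fzd4 lay 5.13 kb inside it. The listed start closest to a gained region among hosts of the BMP, osteogenic and WNT lists was the internal one of Rnf43, which has few CpGs.

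Among genes of 25 to 200 kb, the promoters of the hosts were close in base composition to those of all genes. A window was listed for 430 of the 522 hosts, with a median of 20 CpGs (quartiles 10 to 30), against 13 for all protein-coding genes under 200 kb. Among genes of 25 to 200 kb the median was 20 both in hosts and in all genes, and the median GC content was 62.0% in hosts and 60.7% in all. Within this range, hosts made up 2.55% of genes at 25 to 50 kb and 19.5% at 150 to 200 kb. Length was therefore not matched here or in the motif shares below for that range. The 5 short motifs, AP-1 (TGANTCA), the TEAD core (GGAATG), the RUNX core (TGTGGT), the GC-rich SMAD element (GGCGCC) and the E-box (CANNTG), were searched on both strands. GGCGCC was in 24.9% of host windows (107 of 430, interval 20.9 to 29.3), 15.0% of windows of all protein-coding genes under 200 kb and 11.9% of all listed windows. Within genes of 25 to 200 kb these shares were 25.2% (interval 21.0 to 29.8) and 20.7% (interval 19.7 to 21.7). TGANTCA was in 4.65% of host windows and 7.81% of all listed windows. TGTGGT was in 11.9% against 16.8%, GGAATG in 11.9% against 14.7%, and CANNTG in 63.5% against 72.3%. Within genes of 25 to 200 kb, the host intervals for the motifs other than GGCGCC all held the share of all genes. These are matches of letters in promoter windows, not in the gained regions, whose sequence was not used here.

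The regions were short, and few had a midpoint close to an end of their host. Their median width was 556 bp (quartiles 437 to 748, range 200 to 1635). It was 583 bp for isolated gained regions in longer hosts, 581 bp outside genes and 613 bp for lost regions in hosts under 200 kb. The widest lay in Klf13, a Krüppel-like transcription factor gene (1635 bp), in Mvb12b, which encodes a subunit of the endosomal sorting machinery (1599 bp), and in Tll1, which encodes a tolloid-like protease that can cleave procollagen and the BMP antagonist chordin (1526 bp). The narrowest lay in Lancl2 (200 bp), Ociad1 (202 bp), Rpf2 (219 bp) and Btf3l4 (219 bp). The median host span was 93.2 kb (range 5.28 to 199), and the median distance from a region to the nearer end of its host was 19.9 kb. That distance depends on the host spans and was not compared with an even placement in the same hosts. The nearest other gained region was a median of 220 kb away.

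Both limits of the rule cut through a continuous range. The regions just inside the gap limit were a pair in Dlst, 10.7 kb apart, and those just outside were a pair in Pawr, 9.61 kb apart. The hosts just under the span limit were Bckdhb (199 kb) and Kank1 (198 kb), and those just over it were Fbn2 and Neb (202 kb each).

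Only 11 of the 580 regions (1.90%, interval 0.95 to 3.37) had a midpoint within 1 kb of either host end. This share was 3 of 597 (0.503%, interval 0.104 to 1.46) in longer hosts, where the ends take up less of the span, and 8 of 185 (4.32%, interval 1.89 to 8.34) for lost regions in hosts under 200 kb. With the strand listed for 479 of the 580, 2 regions (0.418%, interval 0.0506 to 1.5) were within 1 kb of the 5′ end and 8 (1.67%, interval 0.724 to 3.26) within 1 kb of the 3′ end. Lost regions numbered 5 of 147 (3.40%, interval 1.11 to 7.76) at the 5′ end and 1 of 147 (0.680%, interval 0.0172 to 3.73) at the 3′ end. Within 10 kb, the shares at the 5′ and 3′ ends were 15.4% and 17.1% for gained regions and 20.4% and 25.9% for lost ones, so both then had the larger share at the 3′ end. Within 5 kb they were 6.05% and 7.93% for gained regions. The intervals overlap in each of these comparisons between gained and lost regions.

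Those 11 regions were found in genes of different kinds. The ones at a 5′ end were in Gm765 (17.5 bp from it) and Gm3985 (440 bp). At 3′ ends they lay in C9, a complement component gene (60 bp), Cxcr6, a chemokine receptor gene (202 bp), Trmt11, a tRNA methyltransferase gene (360 bp), and Tuba3b, an alpha-tubulin gene (573 bp). The others at 3′ ends were in Fzd4 (618 bp), Purb, which encodes a single-stranded DNA-binding protein (673 bp), Ttc19, a gene of mitochondrial complex III assembly (706 bp), and Edar, the ectodysplasin receptor gene (908 bp). The last was in Gm52363 (82.5 bp), for which no strand was listed. The midpoints in Ttc19 and Gm52363 each lay in 2 protein-coding spans, where the rule takes the gene with the nearest end. The share near an end was not recounted with another choice of host. Cxcr6 (5.28 kb), Tuba3b (5.51 kb), Fzd4 (5.75 kb) and Gm52363 (5.98 kb) were also the 4 shortest hosts, followed by Gpr65 (8.09 kb), a proton-sensing receptor gene.

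Along the host, the regions lay more in the middle of the gene than at its ends. The median position was 52.7% of the way from the 5′ to the 3′ end. The first 20% of the host span held 15.4% of regions (74 of 479, interval 12.3 to 19.0), the last 20% held 17.7% (85 of 479, interval 14.4 to 21.5) and the middle of the gene held 66.8% (320 of 479, interval 62.4 to 71.0). An even spread would put the middle at 60%, which lies below that interval. For lost regions in hosts under 200 kb the middle held 64.6% (95 of 147, interval 56.3 to 72.3). For isolated gained regions in longer hosts it held 62.5% (288 of 461, interval 57.9 to 66.9). Both of these intervals hold 60%, and both overlap that of the regions described here.

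Longer genes held more gained regions per megabase, while lost regions did not. In hosts under 25 kb there were 0.396 isolated gained regions per Mb of gene span (48 regions, exact Poisson 95% interval 0.292 to 0.525). The density was 0.721 (interval 0.583 to 0.883) at 25 to 50 kb and 0.959 (interval 0.821 to 1.11) at 50 to 100 kb. It was 1.32 (interval 1.12 to 1.54) at 100 to 150 kb, 1.41 (interval 1.16 to 1.69) at 150 to 200 kb and 1.41 (interval 1.30 to 1.53) in hosts of 200 kb or more. The lost regions stood at 0.239, 0.345, 0.299, 0.333 and 0.235 per Mb over the same classes under 200 kb, and at 0.172 above. The intervals of the shortest and longest gained classes do not overlap, and those of the lost classes under 200 kb do. The lost interval in hosts of 200 kb or more (0.135 to 0.216) lies below those of the classes from 25 to 150 kb. With clustered gained regions included, the density was the same 0.396 under 25 kb and was 1.81 at 150 to 200 kb.

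**Figure D1:**
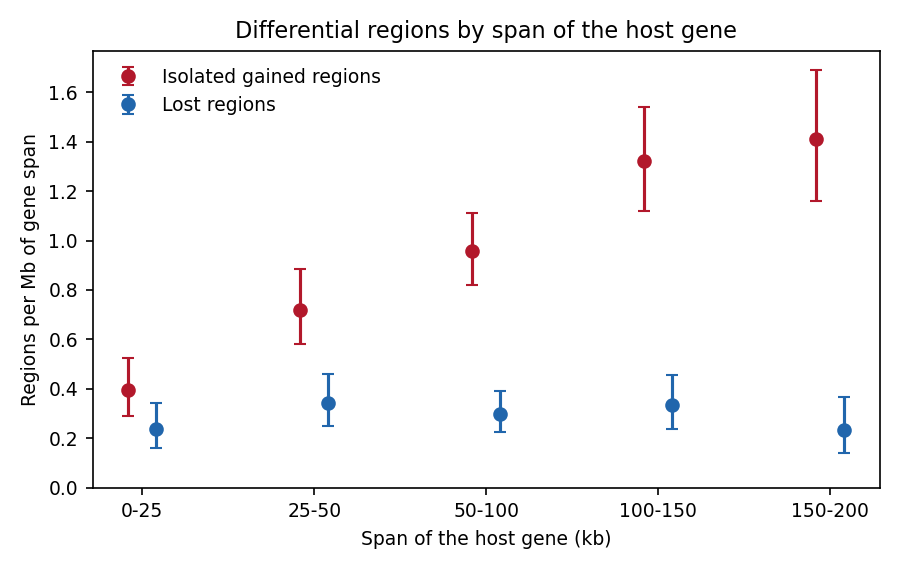
Isolated gained regions (red) and lost regions (blue) per Mb of gene span, by span of the host gene in kb, with exact Poisson 95% intervals as bars. The gained points go from 0.396 under 25 kb to 1.41 at 150 to 200 kb, and the lost points stay between 0.235 and 0.345.

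The density also differed with distance from the gene ends. Measured from the 5′ end, it was 0.121 per Mb within 1 kb (interval 0.0147 to 0.437), 0.484 at 1 to 5 kb, 0.788 at 5 to 20 kb, 1.02 at 20 to 50 kb and 1.32 at 50 to 100 kb (interval 1.10 to 1.57). From the 3′ end the values were 0.484, 0.538, 0.794, 1.03 and 1.33. Lost regions gave 0.302, 0.233, 0.279, 0.353 and 0.341 from the 5′ end and 0.0605, 0.251, 0.314, 0.296 and 0.290 from the 3′ end. Since only long genes have positions far from an end, span and distance are tied. At 5 to 12.5 kb from the nearer end, the density was 0.686 (interval 0.486 to 0.942) in hosts of 25 to 50 kb, 0.848 in hosts of 50 to 100 kb, 1.17 in hosts of 100 to 150 kb and 1.13 (interval 0.489 to 2.23) in hosts of 150 to 200 kb. At 12.5 to 25 kb it was 1.05, 1.28 and 1.19 in the 3 classes from 50 kb up. At a matched distance, the intervals of the span classes overlap. Regions that were open in both genotypes are not in the lists, so how many could have been called at each distance is unknown.

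**Figure D2:**
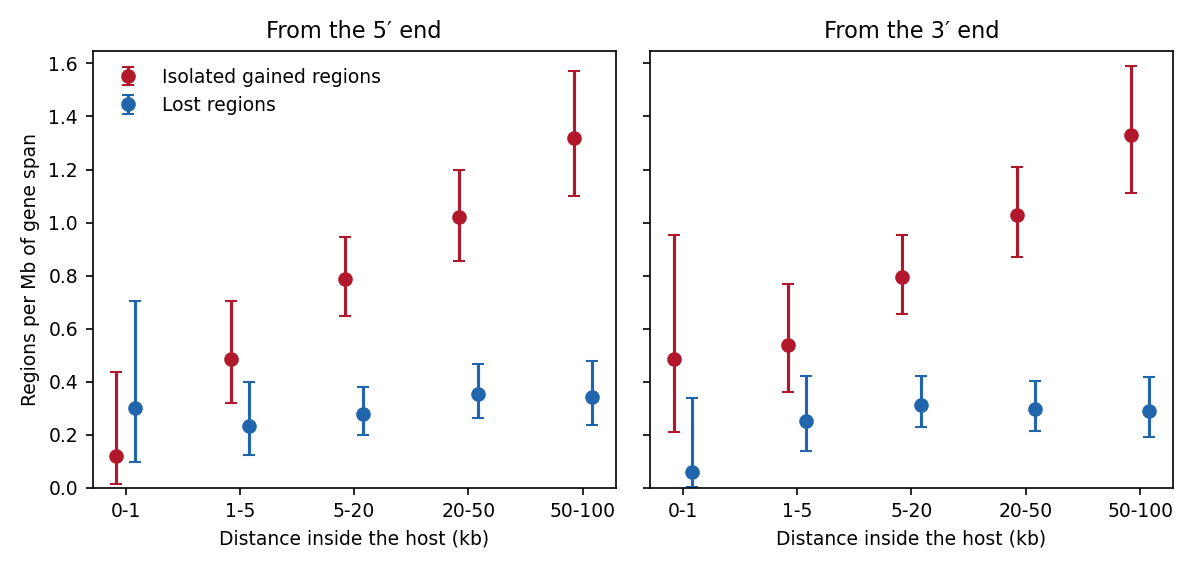
Isolated gained regions (red) and lost regions (blue) per Mb of gene span under 200 kb, by distance in kb from the 5′ end (left) and the 3′ end (right) of the host, with exact Poisson 95% intervals. Gained points climb from 0.121 and 0.484 in the first kb to 1.32 and 1.33 at 50 to 100 kb, and lost points stay below 0.4.

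Most hosts held a single region, as the rule favours. Of 522 hosts, 469 held 1, 48 held 2 and 5 held 3. The 53 hosts with several held 111 regions and had a median span of 115 kb, against 87.5 kb for hosts with 1. The smallest gap between regions of such a host had a median of 32.3 kb (range 10.7 to 111). The 5 hosts with 3 were Tpst1, which encodes a tyrosylprotein sulfotransferase, the kinase gene Cdk17, Ccdc34, Eya2, which encodes a transcriptional coactivator and phosphatase, and Cenpp, which encodes a centromere protein. In Tpst1 (62.4 kb) they lay 11.3, 37.7 and 55.7 kb from the 5′ end, spread over most of the gene. In Ccdc34 (158 kb) they lay at 57.5, 118 and 132 kb. The shortest host with a pair was Dlst (23.3 kb), which encodes a subunit of the 2-oxoglutarate dehydrogenase complex, with regions 5.14 and 16.4 kb from the 5′ end.

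Cenpp is a case where the host name says little, because it holds other genes whole. Its 3 regions lay 75.9, 114 and 186 kb from the 5′ end of its 189 kb span. The first was 5.39 kb from Omd and the next 5.57 kb from Aspn. Both are nested in Cenpp and encode small leucine-rich proteoglycans, osteomodulin of mineralised bone matrix and asporin of cartilage and periodontal tissue. The last was 38.0 kb from Ecm2, which encodes a leucine-rich matrix protein. In all, 21 of the 522 hosts (4.02%, interval 2.51 to 6.08) held another whole protein-coding gene, and 8 of the 580 regions were within 10 kb of one. The other 6 of those were in Klf13, Cpne1, Tbcd, Capn5, Acad11 and Gfm1, near E030018B13Rik (4.87 kb), Rbm12 (5.66 kb), Zfp750 (6.21 kb), Omp (7.16 kb), Ackr4 (8.91 kb) and Lxn (9.38 kb). These nested neighbours were named after their values were seen.

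**Figure D3:**
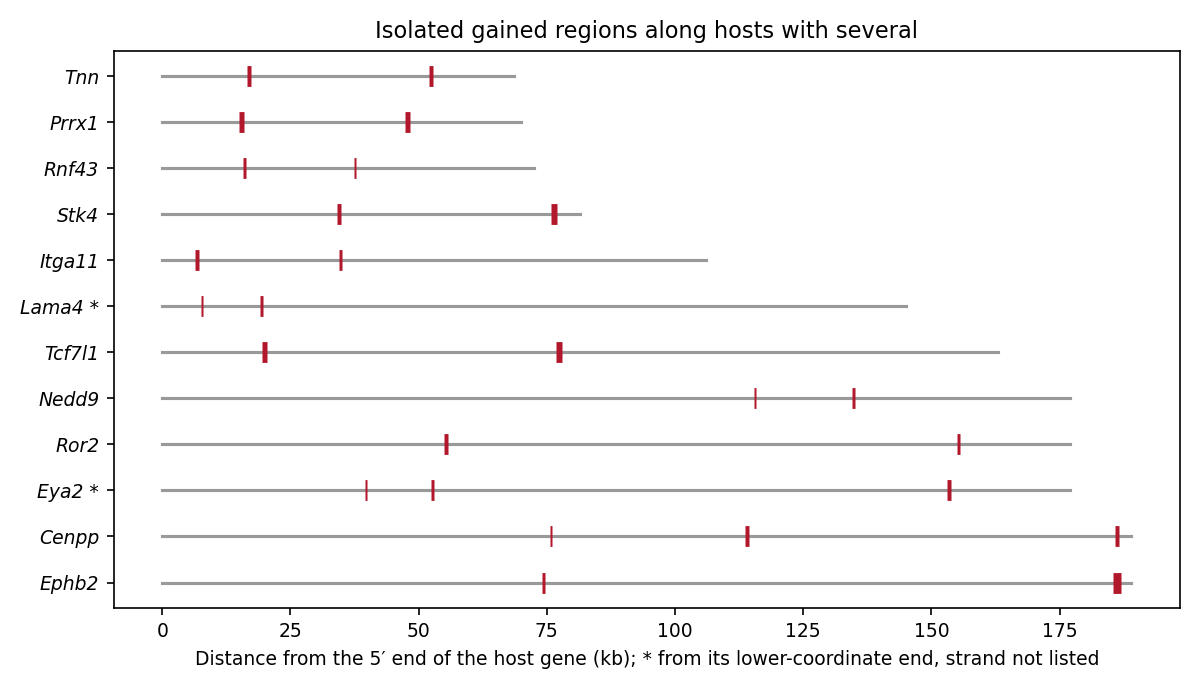
Positions of isolated gained regions (red marks, drawn to width) along 12 host genes with several of them (grey lines), in kb from the 5′ end, or from the lower-coordinate end where marked with an asterisk. The 12 were picked by hand from the 53 hosts with several regions. In them, marks lie inside the genes and not at the left end, from 6.79 kb in Itga11 to 186 kb in Cenpp and Ephb2. Gm765, also with 2 regions but not drawn, held one 17.5 bp from its 5′ end.

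Gene lists chosen for the biology of BMP signalling, bone and mesenchyme were read against the whole annotation. Of 20897 protein-coding genes under 200 kb, 2.50% hosted an isolated gained region and 0.842% hosted a lost one. Of the 736 genes under 200 kb in any of 16 pathway lists, 64 were hosts (8.70%, interval 6.76 to 11.0), with 77 regions at 2.10 per Mb (interval 1.66 to 2.62) against 0.926 (interval 0.852 to 1.00) for all. Lost regions were also in a larger share of these list genes, 20 of 736 (2.72%), than of all genes (0.842%). The list genes are longer, with a median span of 28.9 kb against 15.9 kb. By span, hosts made up 0.923% (interval 0.191 to 2.67) against 0.355% under 25 kb, 4.76% (interval 1.94 to 9.57) against 2.55% at 25 to 50 kb and 10.5% (interval 5.88 to 17.0) against 5.92% at 50 to 100 kb. They made up 25.3% (interval 16.4 to 36.0) against 14.5% at 100 to 150 kb and 39.6% (interval 25.8 to 54.7) against 19.5% at 150 to 200 kb. The share was above that of all genes in each of these 5 classes and in 14 of the 16 lists, but the intervals of the 3 classes under 100 kb held the share of all genes. By list, 0 to 4 genes hosted a lost region, with 4 of 72 in the actin and myosin list (5.56%), 2 of 26 in the Hippo list (7.69%) and none of 64 in the WNT list. No test was made of these shares, the lists were chosen with earlier results of these data known, and 457 of the 522 hosts were in no list.

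**Figure D4:**
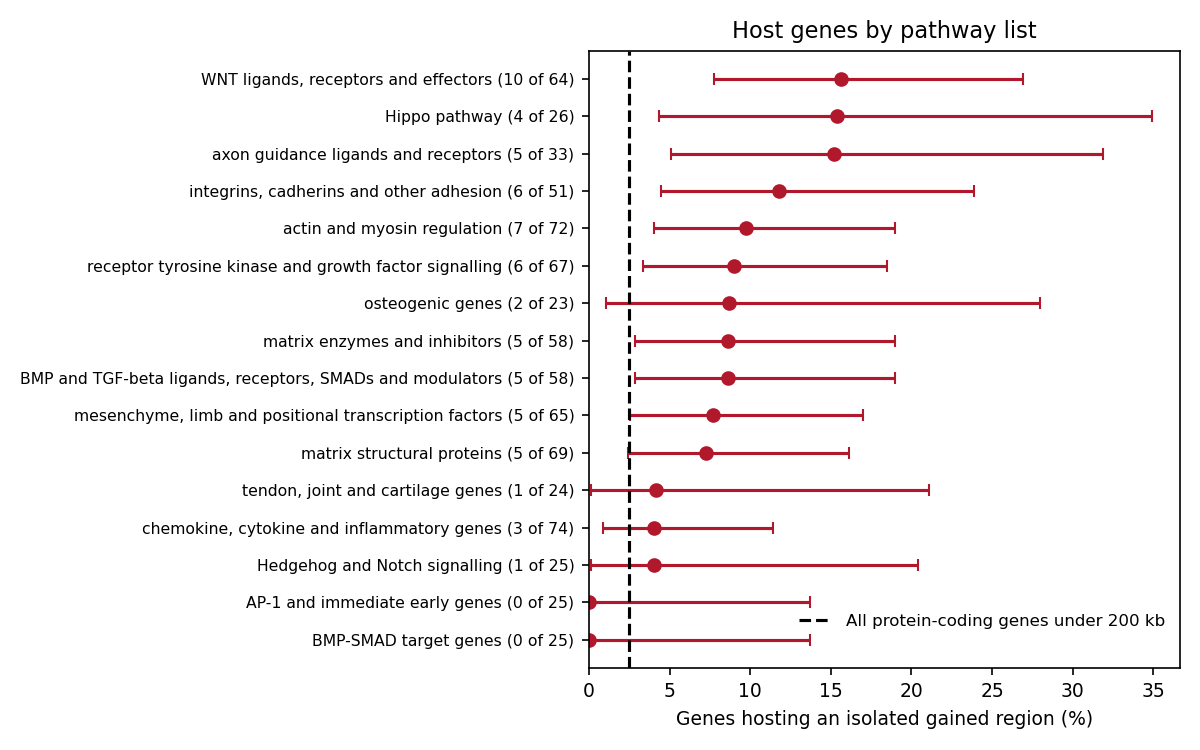
Share of genes under 200 kb in each pathway list that hosted an isolated gained region, in percent, with exact Clopper-Pearson 95% intervals; the dashed line is 2.50%, the share over all protein-coding genes under 200 kb. WNT, Hippo and axon guidance genes stand at 15.2 to 15.6%, and the BMP-SMAD targets and immediate early genes at 0.

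Of 58 BMP and TGF-beta genes, 5 were hosts (8.62%, interval 2.86 to 19.0), and 4 of the 5 encode a ligand or a receptor. Bmp5, a BMP ligand gene, held a region of 764 bp at chr9:75846012-75846775, 71.0 kb into its 125 kb span. The type I receptor gene Bmpr1a, which encodes ALK3, held one of 547 bp at chr14:34445258-34445804, 57.8 kb into 92.3 kb. The type II receptor gene Bmpr2, whose product pairs with type I receptors such as ACVR1, held one of 557 bp at chr1:59866701-59867257, 103 kb into 114 kb and 11.1 kb from the 3′ end. In Acvr1b the region was 356 bp wide at chr15:101176326-101176681, 2.43 kb from the 5′ end and the nearest to a start of the 5. Ltbp2, a latent TGF-beta binding protein gene of elastic fibres, held one of 296 bp, 33.6 kb into 93.3 kb. None of 25 BMP-SMAD target genes was a host, for which the exact interval reaches 13.7%, and these genes have a median span of 5.90 kb.

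In the osteogenic list 2 of 23 genes were hosts (8.70%, interval 1.07 to 28.0). Tnfsf11 encodes RANKL, the cytokine that drives osteoclast formation, and its region of 575 bp at chr14:78294274-78294848 lay 17.1 kb from the 3′ end of a 30.6 kb gene.

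The WNT list had 10 hosts of 64 genes (15.6%, interval 7.76 to 26.9), close to the shares of the Hippo and axon guidance lists, and 13 regions at 3.93 per Mb (interval 2.09 to 6.72). Several of the 10 act on WNT receptors at the cell surface. Rnf43 and Znrf3 encode the ubiquitin ligases that clear Frizzled, Rspo2 encodes the secreted R-spondin that blocks them, and Lgr5 encodes an R-spondin receptor. Fzd4 and Fzd6 encode Frizzled receptors, Ror2 encodes a receptor tyrosine kinase for WNT5A, and Dkk2 encodes a secreted modulator of the LRP coreceptors. Tcf7l1 encodes a nuclear effector that often represses targets, and Ccn4 encodes a matricellular WNT target.

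Of these WNT hosts, 3 held a pair. In Rnf43 (72.5 kb) the regions at chr11:87678931-87679347 and chr11:87700498-87700936 lay 16.1 and 37.6 kb from the 5′ end. The latter is the one near the internal start printed above. In Tcf7l1 (163 kb) they were 904 and 1126 bp wide and lay 19.9 and 77.4 kb in. In Ror2 (177 kb) they lay 55.3 and 155 kb in. The single regions ranged from 376 bp in Fzd6 to 945 bp in Lgr5. In Fzd4 the region at chr7:89409115-89409868 was 754 bp wide and took up a larger part of its 5.75 kb host than any of these. With the span limit at 150 kb instead of 200 kb, 6 of the 10 hosts were left.

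Transcription factor genes of mesenchyme and limb gave 5 hosts of 65 (7.69%, interval 2.54 to 17.0) with 8 regions, or 3.35 per Mb (interval 1.45 to 6.60). Prrx1 encodes a homeodomain factor that marks limb bud mesenchyme, and its pair, 808 and 978 bp wide, lay 15.5 and 47.8 kb into 70.0 kb. The gene of its paralogue Prrx2 held 1 region, 26.1 kb into 36.2 kb. Eya2 held 3 and Eya1 held 1, 14.0 kb from an end of its 142 kb span. Zfhx4, a zinc-finger homeobox gene, held one of 1009 bp. At a span limit of 150 kb, Eya2 (177 kb) and Zfhx4 (198 kb) were lost from this group.

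Genes of matrix proteins and of the enzymes that process them were both among the hosts. Among structural genes, 5 of 69 were hosts (7.25%, interval 2.39 to 16.1), with pairs in Tnn, the tenascin-W gene, and in Lama4, a laminin chain gene. In Tnn (68.7 kb) the pair lay 16.9 and 52.4 kb from the 5′ end. Col27a1 and Col8a1, both collagen genes, held 1 each, and so did Col4a4, a collagen gene outside the list. Fmod, which encodes the collagen-binding proteoglycan fibromodulin, held one of 430 bp, 2.28 kb into 11.0 kb. Fmod was also the one host among 24 tendon, joint and cartilage genes (4.17%, interval 0.105 to 21.1).

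Among genes of matrix enzymes and inhibitors, 5 of 58 were hosts (8.62%, interval 2.86 to 19.0). Mmp13 encodes a collagenase of hypertrophic cartilage, and its region of 505 bp lay 4.59 kb into a 10.8 kb gene. Adamts9, which encodes a versican-cleaving protease, held one of 1191 bp, 22.8 kb into 172 kb. Adamts18, the sheddase gene Adam10 and Plod2, which encodes a lysyl hydroxylase for collagen telopeptides, held 1 each. At a span limit of 150 kb, 3 of the 5 were left.

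Adhesion, cytoskeleton and Hippo genes formed a further set of hosts. In the adhesion list 6 of 51 genes were hosts (11.8%, interval 4.44 to 23.9). Itga11, which encodes a collagen-binding integrin of fibroblasts, held a pair 6.79 and 34.8 kb into 106 kb. Nedd9, a focal adhesion scaffold gene, held a pair 116 and 135 kb into 177 kb. Itga8, Cdh6 and Sdc2 held 1 each, and they encode an integrin, a cadherin and a syndecan. Cdh7, a cadherin gene outside the list, also held 1.

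In the actin and myosin list 7 of 72 were hosts (9.72%, interval 4.0 to 19.0), and 2 were left at a span limit of 150 kb. Myo1e, an unconventional myosin gene, held a pair 125 and 182 kb into 193 kb. Pdlim3, Cald1, Daam1 and Arhgap28 held 1 each. Pdlim3 encodes a protein of the muscle Z-disc, and Cald1 encodes caldesmon. In the Hippo list 4 of 26 were hosts (15.4%, interval 4.36 to 34.9). Stk4, which encodes the MST1 kinase at the head of the pathway, held a pair 34.5 and 76.4 kb into 81.4 kb, the second 1110 bp wide and 5.00 kb from the 3′ end. Vgll4 encodes a cofactor that competes with YAP for TEAD, Fat4 encodes an atypical cadherin and Ptpn14 encodes a phosphatase that binds YAP.

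Growth factor and guidance receptors were hosts as well. In the receptor tyrosine kinase list 6 of 67 genes were hosts (8.96%, interval 3.36 to 18.5). Fgfr2, mutated in craniosynostosis, held a region of 477 bp, 8.49 kb into 104 kb. Egfr, Igf2r and Nrp1 encode other receptors, and Kitl and Pdgfc encode ligands. In the axon guidance list 5 of 33 were hosts (15.2%, interval 5.11 to 31.9), of which 3 encode Eph receptors. Ephb2 held a pair 74.4 and 186 kb into 189 kb, the second 1440 bp wide and 2.57 kb from the 3′ end. Epha2 held one 3.53 kb from its 3′ end, and Epha4 held one 83.0 kb into 148 kb. Ntn4, a netrin gene, and Sema6a, a semaphorin gene, held 1 each.

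Other lists gave few or no hosts. In the inflammatory list 3 of 74 were hosts (4.05%, interval 0.844 to 11.4), among them the interleukin-1 receptor gene Il1r1 and Il17rd, which encodes an inhibitor of FGF signalling. Cdon, which encodes a Hedgehog coreceptor, was the one host among the 25 genes of the Hedgehog and Notch list. In that list 2 genes hosted a lost region. The list does not hold every gene of these pathways. Disp1, a Hedgehog pathway gene outside it, held 2 of the gained regions, and Numb, a Notch pathway gene outside it, was also a host. None of 25 AP-1 and immediate early genes was a host, where the interval again reaches 13.7%, at a median span of 5.34 kb. Markers were read the same way as a check of the label. Of 14 fibroblast markers Prrx1 was a host, and of 60 markers of other cell types Rgs5, a pericyte marker, was a host (1.67%, interval 0.0422 to 8.94). The 7 lists for skeletal muscle, endothelium, blood, neural, epithelial, mesothelial and adipogenic cells held no host. Each had only 4 to 10 genes under 200 kb, and the upper limits of the intervals ran from 30.8% to 60.2%. An empty list therefore says little about other genes of that cell type. Outside the lists, the skeletal muscle genes Myh1 and Mb were hosts, and the endothelial gene Ptprb held 2 regions. Region lists do not give the accessibility of a marker in both genotypes, so the cell type itself could not be checked.

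Some hosts of gained regions also held a lost one. A lost region lay in 12 of the 522 hosts (2.30%, interval 1.19 to 3.98), against 0.842% of all protein-coding genes under 200 kb, whose median span is shorter. Over all genes this share was 0.219% under 25 kb, 1.22% at 25 to 50 kb and 1.91% at 50 to 100 kb. It was 3.82% at 100 to 150 kb and 3.61% at 150 to 200 kb. Hosts and all genes were not compared at matched span, and no test was made. Those 12 hosts held 13 of the gained regions. The closest was in Gcnt2, which encodes a branching glycosyltransferase, where the lost region was 2.33 kb from one gained region and 15.3 kb from the other. It was 6.53 kb away in Aldh4a1, a proline catabolism gene, and 7.31 kb in Prkar1b, which encodes a regulatory subunit of protein kinase A. The distances were 10.3 kb in the adaptor gene Shb, 14.7 kb in the endothelin-converting enzyme gene Ece1, 19.8 kb in the formin gene Daam1, 38.0 kb in Mtss1 and 45.4 kb in Ptpn13. In the other 4 they ran from 57.2 to 71.0 kb. Clustered gained regions lay in 9 of the hosts (1.72%, interval 0.791 to 3.25).

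One region lay beside a microRNA. In Arrb1, which encodes beta-arrestin 1, a region of 222 bp at chr7:99552490-99552711 was 127 bp from the hairpin of Mir326, which is transcribed from the plus strand at chr7:99552269-99552363. The mature sequences from RefSeq are shown, with the seed (bases 2 to 8) in capitals, because this hairpin was the nearest to any of the 568 regions with a listed hairpin on their chromosome.
mmu-miR-326-5p: gGGGGCAGggccuuugugaaggcg
mmu-miR-326-3p: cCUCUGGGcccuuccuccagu

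The seeds of the 2 arms differ. Of these 568 regions, 4 (0.704%, interval 0.192 to 1.79) lay within 10 kb of a hairpin, the others being in Napepld (Gm51277, 3390 bp), Tmem39b (Mir7016, 6250 bp) and Copz1 (Mir148b, 7300 bp).

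The regions were found on every chromosome but Y. Chromosome 10 had the most per Mb of gene span under 200 kb, at 1.59 (49 regions, interval 1.18 to 2.11), followed by chromosome 6 at 1.29 (42 regions) and chromosome 1 at 1.24 (55 regions). The X chromosome had 0.308 (8 regions, interval 0.133 to 0.607). Chromosome 4 carried 31 gained against 30 lost regions in such hosts, and chromosome 10 carried 49 against 3. Lost regions stood at 0.769 per Mb on chromosome 4 and 0.0976 on chromosome 10, so the chromosomes with many gained regions were not those with many lost ones in this pair. Chromosome 10 held 37 hosts, among them Cdk17 with 3 regions and Lama4, Trmt11 and Edar with 2 each.

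**Figure D5:**
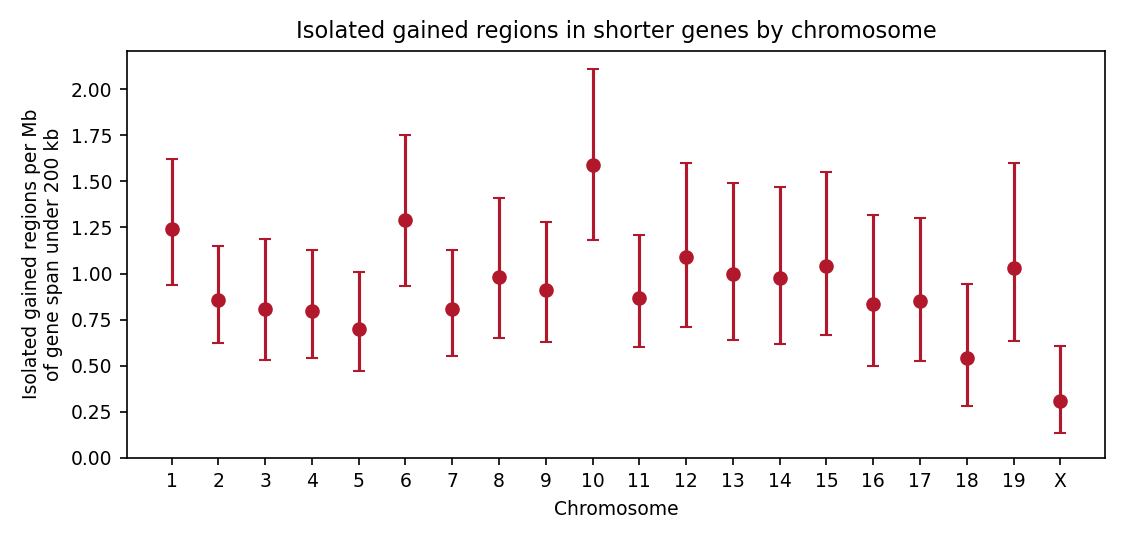
Isolated gained regions per Mb of protein-coding gene span under 200 kb on each chromosome, with exact Poisson 95% intervals. Chromosome 10 is the highest at 1.59 and X the lowest shown at 0.308, with no overlap between their intervals.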

How the data were processed

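ATAC-seq libraries of 3 wild-type and 3 Acvr1R206H/+ fibroblast cultures were compared by the authors, who deposited 1 list of gained and 1 of lost regions as base-pair positions. Per the submitters' processing notes reads were handled with Trimmomatic, Bowtie2 and SAMtools, and MACS2, featureCounts, DESeq2 and bedtools were used, on mm10 (GRCm38). Not given in the sources used here are their versions, the threshold of the lists, any transposase offset and any pooling before peak calling. Only regions that passed the authors' test are listed, so regions near their threshold, their direction and their width depend on those steps.

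Regions were placed by midpoint in gene spans of RefSeq GRCm38.p6 (21887 protein-coding genes), with strands, starts and promoter sequence from its promoter table, using Python 3.11.15, pandas 2.3.3 and scipy 1.17.1. Counting was checked on simulated data. Membership in the gained list chose the regions, so it supports nothing here. The members and the 25 gene lists (913 genes, 958 entries, all matched) were chosen with earlier results of these data known. The rule for named genes took hosts with several regions (up to 12), up to 4 hosts per list, the 10 regions nearest a host end, the 5 shortest hosts, the widest and narrowest regions, those at both limits, and up to 8 hosts with a lost region. Further list hosts, nested genes and microRNAs were named after their values were seen. A few list hosts are not reported here. No motif search was made in the regions, because no genome sequence was used. Alternatives for the gap, the span limit, the choice of host and the distance limit were tried.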

Additional observations from a re-analysis of the deposited data

How the results depend on the processing

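The number of isolated gained regions was 600 with a gap of 5 kb, 537 with 20 kb, 466 with a span limit of 150 kb, 676 with 250 kb and 830 with genes of every type as hosts. It was 577 with the whole region inside the host and 580 with the shortest span as host. Alternatives chosen after seeing the data gave 580 (host taken among short spans alone) and 578 (curated transcripts). Hosts numbered 502 to 522 with the shortest span as host, a gap of 20 kb or curated transcripts. Their number was not recounted at other span limits, where the number of regions changed. List hosts were 45 of 64 at 150 kb. The share within 1 kb of an end was 1.03% at 500 bp and 3.28% at 2 kb. All 19 alternatives of the main counts, medians and shares stayed within 1.5 times the value or its interval. Of those for single lists, single gene ends and densities, 47 stayed and 7 did not. Among the 7, osteogenic hosts went from 2 to 1 at a span limit of 150 kb. No paired analysis was possible because the lists hold no value per library, and for the same reason no library could be left out. The motif search in the regions was not run.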

Other observations

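Gene families were read by the first letters of their symbols, a grouping chosen after the values were seen and not tested. Only stems with 3 or more hosts were listed, so small families among them stand high by that choice, and the share over all protein-coding genes under 200 kb was 2.50%. The large stems were near it, with 10 of 359 for Slc (2.79%), 6 of 230 for Tmem (2.61%), 4 of 171 for Fam (2.34%) and 4 of 133 for Ccdc (3.01%). The stems of carbohydrate sulfotransferases (Chst, 3 of 12, 25%) and of Ptpn phosphatases (3 of 17, 17.6%) were the highest listed. Predicted genes with the Gm stem gave 8 of 1319 (0.607%), and genes with the Zfp stem gave 7 of 387 (1.81%).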
